A study of Mus musculus with 9 samples.

Results

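The Zic genes encode transcription factors with C2H2 zinc fingers, and 4 of them, Zic1, Zic2, Zic4 and Zic5, were followed here in cells sorted from mouse forelimb buds at E10.5. They were represented by every probe set of the array that is annotated to exactly 1 symbol among these genes, which gave 8 of the 45037 probe sets tested: 2 for Zic1, 2 for Zic4, 1 for Zic2 and 3 for Zic5. For each gene the probe set with the highest mean over the 9 arrays was the main one, and the others served as a check.

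Cells were sorted by GFP, and RNA was hybridised to 9 Affymetrix Mouse430_2 arrays, 3 for each of 3 groups. PAX3-FKHR GFP+ cells came from Pax3PAX3-FKHR/GFP embryos, in which one Pax3 allele expresses the PAX3-FKHR fusion and the other expresses GFP. Control GFP+ cells came from Pax3GFP/+ embryos, in which one Pax3 allele expresses GFP and the other is intact. Both GFP+ groups therefore lack one normal Pax3 allele, and the PAX3-FKHR group lacks both. The third group, GFP- cells, carries no genotype in the sample labels: the study's methods name Pax3GFP/+ in one place and Pax3+/+ in another, and the genotype is not settled here. The fusion allele was activated by a PGK-Cre transgene, which is not restricted to a cell type, and limb buds of several embryos of one genotype were pooled, so an array stands for a pool and not for an embryo.

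Zic factors are related through their zinc fingers to the Gli and Glis factors, of which the Gli factors carry the response to Hedgehog signals. In the mouse they lie in head-to-head pairs, Zic1 with Zic4 on chromosome 9 and Zic2 with Zic5 on chromosome 14. They are best known for their roles in the dorsal neural tube and at the border of the neural plate, where Zic1 and Pax3 act together to induce the neural crest, and Zic1 also marks the dorsal part of the somite, including the epaxial dermomyotome. The cells sorted by Pax3-GFP from the limb bud are mainly myogenic progenitors that have left the hypaxial dermomyotome.

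The start regions of the Zic genes are shown because the members of a pair share a locus but, as given further on, did not have the same levels. RefSeq promoters, 250 bases before to 50 bases after the start in GRCm38.p6, were held for 3 of the 4 genes, Zic1 at chr9:91365719-91366018 on the minus strand, Zic4 at chr9:91368722-91369021 on the plus strand and Zic5 at chr14:122465609-122465908 on the minus strand. Each is printed 5′ to 3′ on the strand of its gene, and capitals mark matches, on either strand, to the homeodomain core TAAT or to GTCAC, a core of sites bound by paired domains.
Zic1: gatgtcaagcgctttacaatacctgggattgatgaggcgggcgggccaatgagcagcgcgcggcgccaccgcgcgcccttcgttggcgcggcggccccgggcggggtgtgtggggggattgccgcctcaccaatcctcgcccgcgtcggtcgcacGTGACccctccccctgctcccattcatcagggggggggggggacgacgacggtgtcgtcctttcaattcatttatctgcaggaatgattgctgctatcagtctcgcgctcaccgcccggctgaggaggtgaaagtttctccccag
Zic4: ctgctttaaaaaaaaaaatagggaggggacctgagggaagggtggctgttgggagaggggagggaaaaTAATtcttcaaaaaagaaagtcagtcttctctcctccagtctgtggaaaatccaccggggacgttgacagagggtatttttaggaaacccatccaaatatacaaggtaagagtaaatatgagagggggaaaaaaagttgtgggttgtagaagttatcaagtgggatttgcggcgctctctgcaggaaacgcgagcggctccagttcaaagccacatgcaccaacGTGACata
Zic5: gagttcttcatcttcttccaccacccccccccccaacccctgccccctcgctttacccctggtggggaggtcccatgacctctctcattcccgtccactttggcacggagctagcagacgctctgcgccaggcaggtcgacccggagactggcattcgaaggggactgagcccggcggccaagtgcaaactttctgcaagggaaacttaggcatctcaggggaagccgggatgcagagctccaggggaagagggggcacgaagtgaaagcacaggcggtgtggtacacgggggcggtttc
The Zic1 and Zic4 starts lie 3204 bases apart. The Zic1 window holds 1 match to GTCAC, the Zic4 window holds 1 to GTCAC and 1 to TAAT, and the Zic5 window holds none of either. GTCAC occurs in 45.6% and TAAT in 58% of the 32851 promoters of this length, so such matches are common. GGGTGGTC, a core of Gli sites, was searched on both strands and occurs in 0.807% of the promoters and in none of these 3; the 3 motifs do not overlap one another in these windows. G and C make up 65.3% of the Zic1 window, with 31 CpG dinucleotides, 46% of the Zic4 window, with 8, and 62.7% of the Zic5 window, with 15. The medians over all promoters are 52.7% and 7.

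The targeted gene was examined first. On its main probe set, 1420389_at, Pax3 had log2 values of 7.15, 6.83 and 7.33 in PAX3-FKHR GFP+ cells, 9.92, 8.94 and 10.22 in control GFP+ cells and 5.17, 5.14 and 4.77 in GFP- cells. The groups did not overlap: Pax3 was highest in control GFP+ cells and lowest in GFP- cells. PAX3-FKHR GFP+ cells have no intact Pax3 allele, yet their values exceeded those of GFP- cells by 2.08 (adjusted p 0.00211, limma), and on the other 2 Pax3 probe sets by 1.33 and 3.03, each called. Whether these probe sets also read the fusion transcript was not tested. Of 10 measured markers of hypaxial and migrating progenitors, 8 were called higher in control GFP+ than in GFP- cells and none lower, among them the homeobox gene Lbx1 (log2 fold change 5.02) and the receptor gene Met (4.50). Over all probe sets, 1.84% were called higher and 4.01% lower in this comparison. Here and below, a probe set was called when limma gave a Benjamini-Hochberg adjusted p under 0.05 over all probe sets and a log2 fold change of at least 0.5 in size. The methods describe the 3 arrays of a group as biological replicates, and n = 3 for each mean ± SD. The 3 comparisons share groups: each group enters a pair of them, so they are not independent of each other.

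Zic1 separated all 3 groups. On the main probe set, 1423477_at, the log2 values of Zic1 were 6.72, 6.27 and 7.04 in control GFP+ cells (6.67 ± 0.39), 4.90, 4.74 and 4.18 in PAX3-FKHR GFP+ cells (4.61 ± 0.38) and 2.92, 3.14 and 2.51 in GFP- cells (2.86 ± 0.32). Every control GFP+ array lay above every PAX3-FKHR GFP+ array, and every PAX3-FKHR GFP+ array above every GFP- array. Zic1 was thus highest in control GFP+ cells, lower in PAX3-FKHR GFP+ cells and lowest in GFP- cells. The paper reports neural crest markers to a minor extent in its limb samples, which it ascribes probably to some somitic material. Which cells within the GFP+ gate carry Zic1 was not tested. In these bulk samples, fewer cells with Zic1 and less Zic1 RNA per cell cannot be told apart.

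In PAX3-FKHR GFP+ against control GFP+ cells, Zic1 fell by 2.07 on the log2 scale, a fold change of 4.20, with a standard error of 0.24, a 95% interval of -2.61 to -1.53 and an adjusted p of 0.00469 (limma). It was the only one of the 4 genes called in this comparison on its main probe set. Over all probe sets, 0.395% were called higher and 0.142% lower in this comparison. By its log2 fold change Zic1 had rank 6 from the lowest of 18193 genes, each represented by its main probe set.

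In control GFP+ against GFP- cells, Zic1 rose by 3.82 on the log2 scale, a fold change of 14.1, with a standard error of 0.24, a 95% interval of 3.28 to 4.36 and an adjusted p of 2.69e-05 (limma). The GFP- values lay between the 3.37 and 14.4 percentiles of the values on their arrays. No detection calls were used, so Zic1 is not shown to be above background in GFP- cells, and the fold changes against them are differences of RMA values that may understate the ratio of transcripts. With the fusion the excess over GFP- cells was smaller but was still called: PAX3-FKHR GFP+ cells exceeded GFP- cells by 1.75, with a standard error of 0.24, a fold change of 3.36 and an adjusted p of 0.00190 (limma). In that comparison 2.8% of probe sets were called higher and 4% lower.

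The other Zic1 probe set, 1439627_at, had the same order of group means. Its log2 values were 5.86, 5.72 and 6.37 in control GFP+ cells, 4.71, 3.60 and 3.19 in PAX3-FKHR GFP+ cells and 2.60, 2.58 and 2.75 in GFP- cells. Again no array of one group reached into another, although the PAX3-FKHR GFP+ arrays were spread more widely, with an SD of 0.79 against 0.34 and 0.09. The difference between PAX3-FKHR GFP+ and control GFP+ cells was -2.15 (SE 0.32, adjusted p 0.0159, limma), and that between control GFP+ and GFP- cells was 3.34 (SE 0.32, adjusted p 3.19e-04). Between PAX3-FKHR GFP+ and GFP- cells this probe set differed by 1.19 with an adjusted p of 0.0522 and was not called, although it was called under some alternatives: with arrays centred on their medians (adjusted p 0.0483), array weights (0.0213), the filter on low values (0.0396), the local pooled error test (6.03e-11) and without PAX3-FKHR GFP+ replicate 3 (0.0238). Over the 6 fits that each left out 1 array, the difference was 0.75 to 1.51. The call against control GFP+ cells on this probe set was lost with only the 6 arrays compared (adjusted p 0.105) and in 4 of the 6 fits that each left out 1 array. The arrays left out were replicates 2 and 3 of the PAX3-FKHR group and replicates 1 and 3 of the control group, with adjusted p of 0.0888, 0.0544, 0.0625 and 0.0634. On the main probe set Zic1 was called in all 6 of these fits, with log2 fold changes of -2.27 to -1.86.

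**Figure D1:**
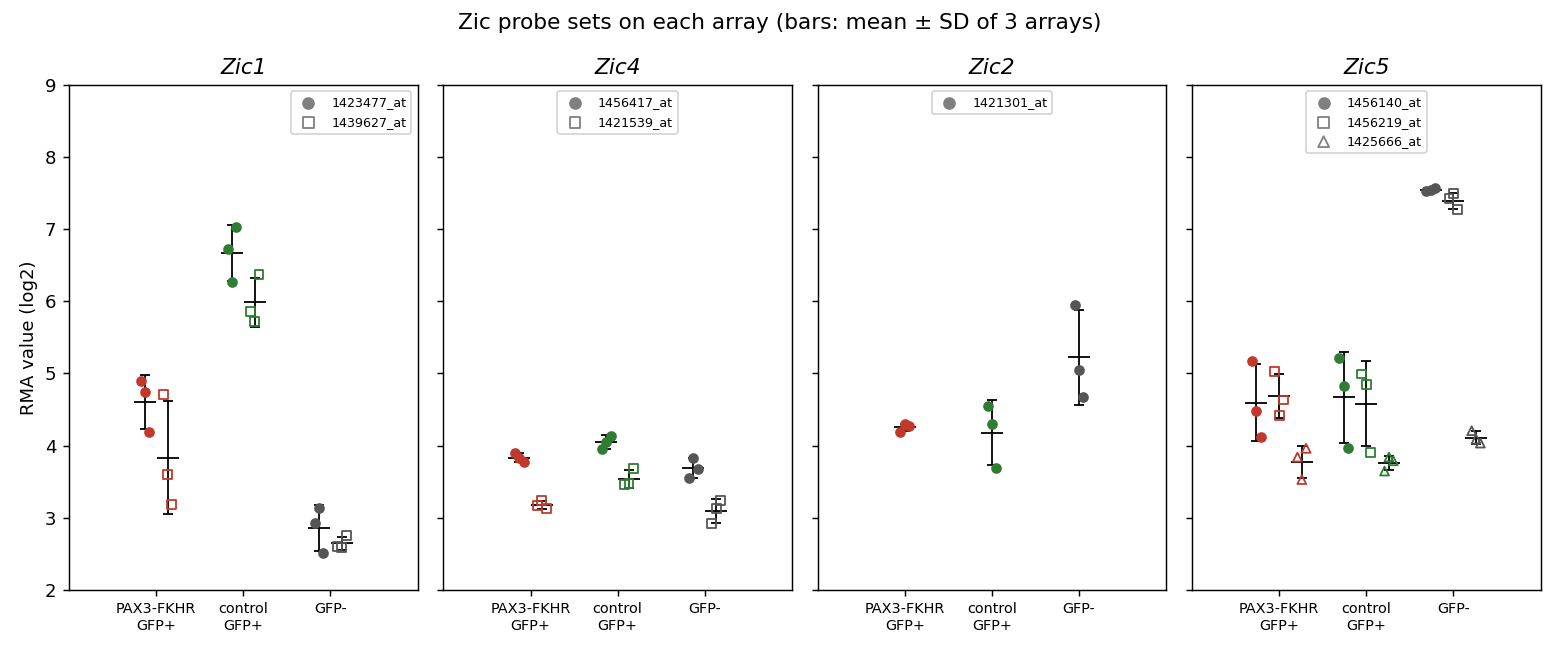
RMA values on the log2 scale (vertical axis) of the 8 Zic probe sets on the 9 arrays, by group (horizontal axis). Each symbol is an array, filled symbols are the main probe set of the gene, and bars give the mean ± SD of 3 arrays. Control GFP+ arrays stand highest for Zic1 (6.27 to 7.04) and GFP- arrays highest for Zic5 on its main probe set (7.53 to 7.57), while the Zic4 symbols stay within a narrow band.

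Zic4, the partner of Zic1 on chromosome 9, moved little. Its main probe set, 1456417_at, had log2 values of 3.95, 4.06 and 4.13 in control GFP+ cells (4.05 ± 0.09), 3.90, 3.83 and 3.77 in PAX3-FKHR GFP+ cells (3.83 ± 0.06) and 3.55, 3.83 and 3.68 in GFP- cells (3.68 ± 0.14). The control GFP+ arrays lay above all others, and the PAX3-FKHR GFP+ and GFP- arrays overlapped. The differences were -0.21 for PAX3-FKHR GFP+ against control GFP+ cells (95% interval -0.43 to 0.0056, adjusted p 0.712, limma), 0.36 for control GFP+ against GFP- cells (0.14 to 0.58, adjusted p 0.0579) and 0.15 for PAX3-FKHR GFP+ against GFP- cells (-0.069 to 0.37, adjusted p 0.450). None was called. For 2 groups whose arrays do not overlap, the background is wide: in the first of these comparisons 6.99% of all probe sets had every PAX3-FKHR GFP+ array below every control GFP+ array, and in the second 14.5% had every control GFP+ array above every GFP- array.

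The other Zic4 probe set, 1421539_at, read 3.46, 3.48 and 3.68 in control GFP+ cells, 3.16, 3.24 and 3.12 in PAX3-FKHR GFP+ cells and 2.92, 3.12 and 3.24 in GFP- cells. The control GFP+ arrays were again above all others. Its difference between control GFP+ and GFP- cells was 0.45 with an adjusted p of 0.0251, under the fold threshold and so not called. Of the 6 fits that each left out 1 array, 1 called this probe set. That fit left out GFP- replicate 3 and gave 0.52 (adjusted p 0.0270, limma). Its difference between PAX3-FKHR GFP+ and control GFP+ cells was -0.36 (95% interval -0.58 to -0.14, adjusted p 0.265). The Zic4 values lay between the 22.5 and 33.9 percentiles of their arrays on the main probe set and between the 10.05 and 24.9 percentiles on this one, in every group. Zic4 is therefore not shown to be above background, and a fall of Zic4 might not be measurable on these probe sets.

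Zic5, which lies with Zic2 on chromosome 14, had the opposite order to Zic1 with respect to the sort. On the main probe set, 1456140_at, its log2 values were 7.53, 7.54 and 7.57 in GFP- cells (7.55 ± 0.02), 5.21, 4.83 and 3.97 in control GFP+ cells (4.67 ± 0.64) and 5.17, 4.48 and 4.12 in PAX3-FKHR GFP+ cells (4.59 ± 0.53). The GFP- arrays were high and nearly equal, and both GFP+ groups were low, overlapped each other and were widely spread. Control GFP+ cells were below GFP- cells, where Zic5 fell by 2.88 on the log2 scale, a fold change of 7.36 (SE 0.32, adjusted p 7.14e-04, limma). PAX3-FKHR GFP+ cells were also below GFP- cells, by a log2 difference of -2.96, a fold change of 7.76 (SE 0.32, adjusted p 3.86e-04). In each of these 2 comparisons Zic5 had rank 6 from the lowest of the 18193 genes.

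No effect of the fusion on Zic5 was detected. The difference between PAX3-FKHR GFP+ and control GFP+ cells was -0.077 (adjusted p 0.973), with a 95% interval of -0.78 to 0.62, so changes within that interval could not be seen with 3 arrays a group. Probe set 1456219_at gave much the same values for Zic5: 7.42, 7.49 and 7.28 in GFP- cells, 4.99, 4.85 and 3.91 in control GFP+ cells and 5.02, 4.42 and 4.63 in PAX3-FKHR GFP+ cells. It was called lower in both GFP+ groups, in control cells (-2.82, SE 0.26, adjusted p 2.74e-04) and in PAX3-FKHR cells (-2.71, SE 0.26, adjusted p 2.08e-04). The last Zic5 probe set, 1425666_at, disagreed in size. It read 4.21, 4.09 and 4.03 in GFP- cells, 3.65, 3.84 and 3.79 in control GFP+ cells and 3.84, 3.53 and 3.96 in PAX3-FKHR GFP+ cells. Its GFP- arrays were also above all others, but the differences of -0.35 and -0.33 were not called (adjusted p 0.121 and 0.141). Over all 45037 probe sets, every control GFP+ array lay below every GFP- array in 4707. Every PAX3-FKHR GFP+ array lay below every GFP- array in 5502.

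Zic2 has a single probe set here, 1421301_at. Its log2 values were 5.95, 5.05 and 4.67 in GFP- cells (5.23 ± 0.66), 4.55, 4.30 and 3.68 in control GFP+ cells (4.18 ± 0.45) and 4.19, 4.29 and 4.27 in PAX3-FKHR GFP+ cells (4.25 ± 0.05). The GFP- arrays were above all GFP+ arrays but differed among themselves, by more than the gap to the nearest control GFP+ array. Such separation is common: of the 45037 probe sets, 4707 had every control GFP+ array below every GFP- array. With PAX3-FKHR GFP+ in place of control GFP+ arrays, 5502 probe sets did. The difference was -1.05 for control GFP+ against GFP- cells (95% interval -1.71 to -0.38, adjusted p 0.0699, limma) and -0.97 for PAX3-FKHR GFP+ against GFP- cells (-1.64 to -0.31, adjusted p 0.0852), and neither was called. Both were called without GFP- replicate 3, the lowest of its group, at -1.32 (adjusted p 0.0398) and -1.25 (adjusted p 0.0377). Between PAX3-FKHR GFP+ and control GFP+ cells Zic2 differed by 0.073, with a 95% interval of -0.59 to 0.74 (adjusted p 0.973, limma). On the GFP+ arrays Zic2 lay between the 25.4 and 40.3 percentiles. It is not shown to be above background there, and a fall with the fusion might not be measurable.

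**Figure D2:**
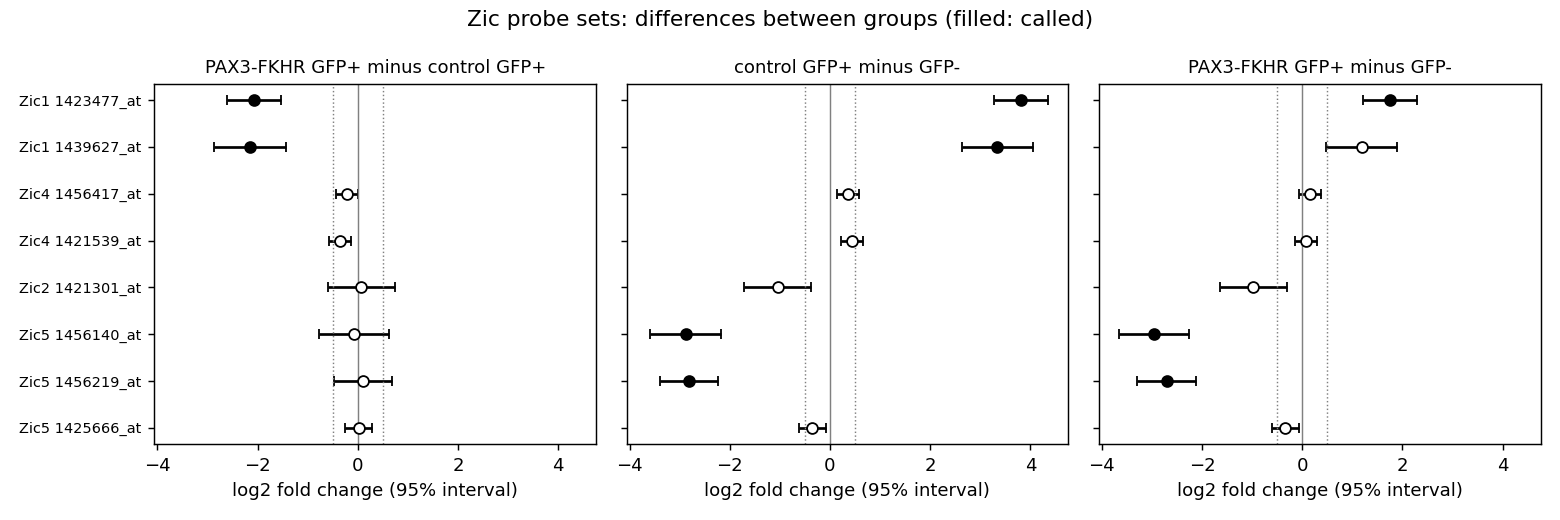
Log2 fold changes with 95% intervals (horizontal axis, limma) of the 8 Zic probe sets (vertical axis) in the 3 comparisons. Filled points were called and dotted lines mark the log2 fold change threshold of 0.5 in either direction. In the comparison of PAX3-FKHR GFP+ with control GFP+ cells the points that stand away from 0 past the threshold are the 2 Zic1 probe sets, at -2.07 and -2.15.

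In number, 1 of the 4 genes was called with the fusion, Zic1 in the lower direction. In control GFP+ against GFP- cells 2 of the 4 were called, Zic1 higher and Zic5 lower, and the same 2 genes were called in the same directions in PAX3-FKHR GFP+ against GFP- cells. The median log2 fold change of the 4 genes was -0.14, -0.34 and -0.41 in the 3 comparisons, beside -0.030, 0.083 and 0.052 over all genes. Zic1 and Zic5 were thus called in opposite directions by the sort. Over the 9 arrays, the main probe sets of Zic1 and Zic4 correlated with r = 0.89 and those of Zic2 and Zic5 with r = 0.82, while Zic1 and Zic5 had r = -0.78. These correlations are descriptions over 9 arrays that fall into 3 groups, and the genes share the arrays and the group structure.

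The pairs were set against their neighbours on the chromosome. The nearest 2 genes with a probe set on each side, by RefSeq order, were Adamts7, Tbc1d2b, Plscr1 and Plscr2 around Zic1 and Zic4, and Clybl, Gm5089, Pcca and Ggact around Zic5 and Zic2. None of these 8 genes was called in any of the 3 comparisons. Adamts7, which encodes a secreted metalloprotease, had the lowest value among them with the fusion, -0.82 (adjusted p 0.357), and Gm5089, a noncoding RNA gene, differed by -0.38 between control GFP+ and GFP- cells (adjusted p 0.104).

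**Figure D3:**
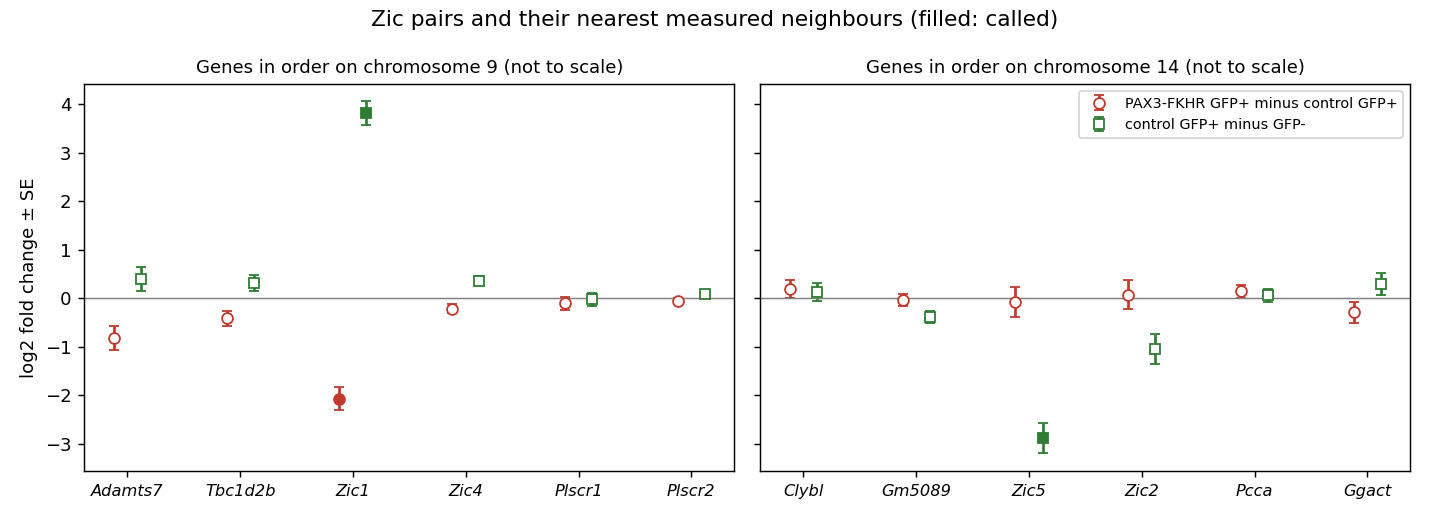
Log2 fold changes ± SE (vertical axis, limma) of the Zic pairs and their nearest measured neighbours, in chromosomal order and not to scale (horizontal axis). Circles compare PAX3-FKHR GFP+ with control GFP+ cells, squares control GFP+ with GFP- cells, and filled symbols were called. Filled symbols occur at Zic1 (-2.07 and 3.82) and at Zic5 (-2.88).

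Among the 1248 genes whose SD over the 9 arrays was at least 0.5, the gene most like Zic1 was Pax3, with Pearson r = 0.985 over 9 arrays. It was followed by Pou3f3, a POU domain factor (r = 0.974), Ckb, the brain type creatine kinase (0.974), Grb14, an adaptor of receptor kinases (0.973), and Tacr3, the neurokinin receptor gene (0.973). Pax3 fell by 2.59 with the fusion, and Pou3f3 and Tacr3 by 1.13 and 1.98, each called, whereas Ckb (-0.61, adjusted p 0.192) and Grb14 (-1.20, adjusted p 0.0709) were not. For Zic4 the most alike were Gpm6a (r = 0.940), Greb1l (0.926), Mllt11 (0.915), Tacr3 (0.907) and Pou3f3 (0.902), so Tacr3 and Pou3f3 stood on both lists. These values rest on 9 arrays in 3 groups and carry no test. The groups were set by the sort on Pax3-GFP and by the Pax3 alleles, so the order of Pax3 follows from the design. Any gene whose groups separate in that order correlates with Pax3.

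For Zic5 the most alike genes were Cbln1 (r = 0.989), Pcdh18 (0.987), Shh (0.987), Sh3bp5 (0.986) and Wnt5a (0.986). Shh and Wnt5a are signals of the limb bud, made by its posterior margin and by its distal part. The Shh values were 8.31, 8.73 and 8.66 in GFP- cells, 6.80, 6.62 and 5.65 in control GFP+ cells and 6.89, 6.37 and 6.32 in PAX3-FKHR GFP+ cells. As with Zic5, control GFP+ replicate 3 was the lowest array. For Zic2 the most alike were Lrp1 (r = 0.987), Arhgef40 (0.974), Wipi1 (0.957), Daam2 (0.949) and Dact3 (0.945). In all 5, as in Zic2, GFP- replicate 1 was the highest array.

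**Figure D4:**
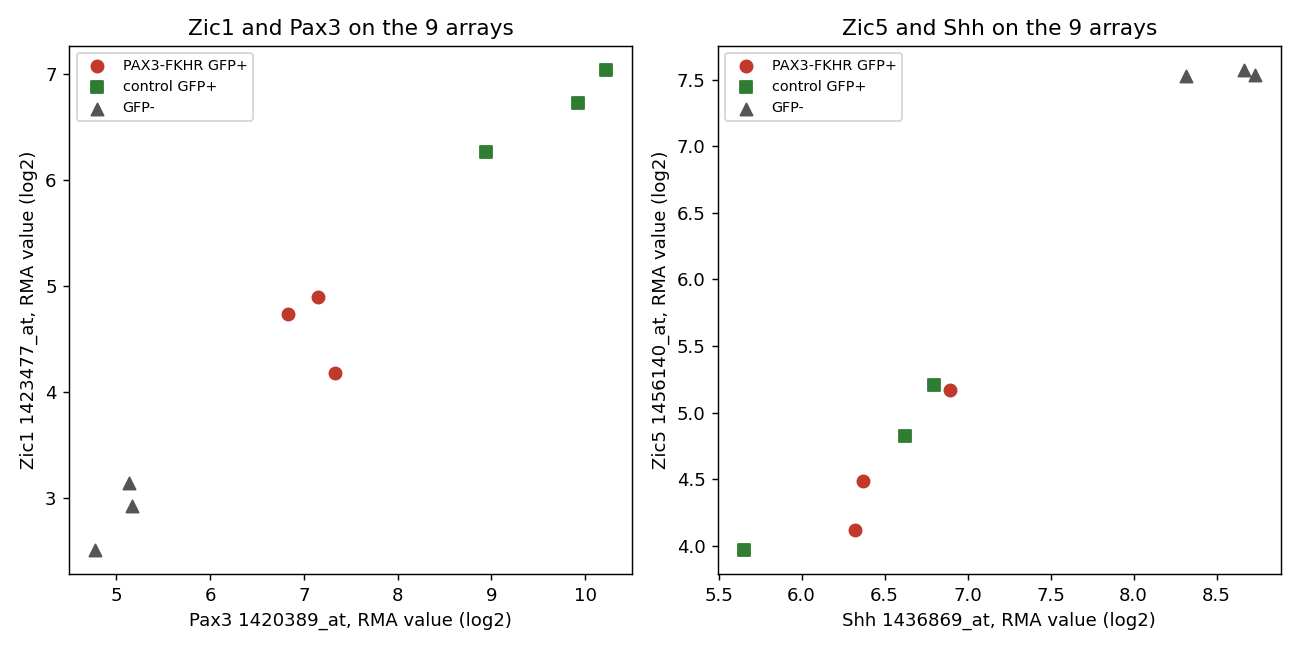
Zic1 against Pax3 and Zic5 against Shh on the 9 arrays, RMA values on the log2 scale on both axes. Colours and symbols mark the groups, which were set by the Pax3 alleles and the sort on Pax3-GFP. Zic1 and Pax3 form 3 separate clusters by group, while the PAX3-FKHR GFP+ and control GFP+ arrays mix for Zic5 and Shh and the GFP- arrays stand apart, at 7.53 to 7.57 for Zic5.

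Of the 6 Gli and Glis relatives of the Zic factors, 1 was called in each of the first comparisons. With the fusion 1 was called higher, Glis3 (0.76, adjusted p 0.0306), and none lower; in control GFP+ against GFP- cells Glis3 was the only one called, lower by -0.75 (adjusted p 0.00730). Gli1, Gli2 and Gli3 differed by -0.40, -0.16 and 0.16 with the fusion, none called. The median over the 6 was -0.16 with the fusion and -0.20 between control GFP+ and GFP- cells. Of 15 Hedgehog pathway genes measured, 2 were called higher and 1 lower with the fusion: Hhip, which binds and limits the ligand (1.02, adjusted p 0.00712), the co-receptor gene Cdon (1.28, adjusted p 0.0140) and, lower, Scube2, which aids release of the ligand (-1.10, adjusted p 0.0495). Between control GFP+ and GFP- cells 2 were called higher and 3 lower, the last being the ligand Shh (-2.21), Cdon (-0.996) and the receptor Ptch1 (-0.79). The medians over the 15 genes were -0.082 and -0.024, near those of all genes.

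Of 15 genes that act with Zic factors at the border of the neural plate, 3 were called higher and 1 lower with the fusion. Pax7, the paralogue of Pax3, rose by 1.45 (adjusted p 0.0281), where Zic1 and Pax3 fell. Between control GFP+ and GFP- cells 4 were called higher and 5 lower, the higher ones including Pax3, Pax7, Sox10 (1.96) and Foxd3 (1.34), and the lower ones including the homeobox genes Msx1 (-1.82) and Msx2 (-2.11), which limb mesenchyme also expresses. Zic1 is also known from the dorsal somite. Of 9 epaxial and central dermomyotome genes, 6 were called higher in control GFP+ than in GFP- cells and none lower. The 6 included the myogenic factor gene Myf5 (5.74), Dmrt2 (2.32) and Meox1 (2.08). Those not called were Wnt11 (-0.79), En1 (0.032) and Nog (0.11). With the fusion 1 of these 9, Pax7, was called higher and none lower. Of the 9 sclerotome genes, Foxc2 was called lower with the fusion (-1.66, adjusted p 0.00923), and 3 were called higher and 3 lower in control GFP+ against GFP- cells.

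Markers of the neural tube, where Zic1 is also expressed, and of the neural crest were read beside the Zic1 result. Of 21 measured genes of neural tube progenitors, control GFP+ cells had 6 called higher and 2 called lower against GFP- cells, and with the fusion 1 was called higher, the homeobox gene Dbx1 (2.67), and none lower. The mean of the list, as a deviation from each gene's mean, was 0.18 to 0.34 on control GFP+ arrays, 0.074 to 0.23 on PAX3-FKHR GFP+ arrays and -0.45 to -0.37 on GFP- arrays. Sox2, a factor of neural progenitors, had log2 values of 7.08, 7.14 and 7.14 in control GFP+ cells, 5.42, 6.001 and 3.90 in PAX3-FKHR GFP+ cells and 2.92, 2.90 and 2.79 in GFP- cells. Its groups did not overlap and were in the order of Zic1, although its difference with the fusion, -2.02, was not called (adjusted p 0.0721). Fabp7, a gene of radial glia and Schwann cell precursors, was likewise ordered, with -1.61 for the fusion (adjusted p 0.0614) and 3.98 for control GFP+ against GFP- cells. Olig3 and Neurog2, factors of dorsal and of neurogenic progenitors, were also highest in control GFP+ cells. Olig3 was at 4.71, 4.56 and 4.76 in control GFP+ cells, 3.996, 4.47 and 4.32 in PAX3-FKHR GFP+ cells and 3.81, 3.62 and 3.42 in GFP- cells, called in both comparisons with GFP- cells (1.06 and 0.65) and not with the fusion (-0.41, adjusted p 0.510). Neurog2 was called higher in control GFP+ than in GFP- cells (0.81) and differed by -0.59 with the fusion, with no overlap of the arrays (adjusted p 0.0701). Some other members had group means in the order of Zic1 without being called in any comparison. Among them were Hes5 (6.58 in control GFP+, 6.20 in PAX3-FKHR GFP+ and 6.02 in GFP- cells) and Atoh1 (4.76, 4.41 and 4.07). Further members of the list did not have that order. Nes and Irx3 were higher with the fusion, by 0.54 and 0.76, with no overlap of the arrays. Neither was called (adjusted p 0.288 and 0.528, limma). Over all probe sets, 5.03% had every PAX3-FKHR GFP+ array above every control GFP+ array, and 6.99% had every one below. In control GFP+ against GFP- cells, Irx3 (-1.14) and Lhx2 (-2.07) were the 2 called lower, and Nes was called higher (1.24). With the fusion 14 of the 21 genes lay below 0 and 7 above, with a median of -0.095. Wnt1 and Lmx1a, which define the roof plate and dorsal midline, stayed at 3.08 to 3.69 and 3.46 to 3.85 over all 9 arrays. Both lay below the array medians of 5.09 to 5.14 and are not shown to be above background. A change in them might not be measurable. Of 9 measured neural crest and Schwann precursor genes none was called with the fusion, and against GFP- cells the control GFP+ cells had 4 called higher and 2 lower. In a section of an interlimb somite at E10.5, the paper saw Zic1 protein mainly in the epaxial dermomyotome and also in the dorsal neural tube. It describes Zic1 as mainly absent from migrating Pax3 positive neural crest at that level. The part of neural tube and neural crest cells in the Zic1 values of these limb samples was not tested.

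The GFP- cells were taken from a sorting window of their own, so limb bud cells in neither window were not sampled. Other markers of the GFP- cells were read beside Zic5 and Zic2. Of 15 limb mesenchyme genes, 11 were called below their GFP- level in control GFP+ cells and none above it, including the T-box genes Tbx5 (-1.67) and Tbx2 (-2.05) and the LIM homeobox gene Lhx9 (-2.58), and the list mean was 1.30, 1.22 and 0.92 on the GFP- arrays against -0.80 to -0.45 on GFP+ arrays. Of 11 limb ectoderm genes 3 were called lower and none higher. Their mean was 0.038, 0.80 and 1.22 on GFP- replicates 1, 2 and 3, and that of 8 blood and macrophage genes was -0.40, 1.35 and 1.89, with 1 gene, the erythroid factor Klf1, called lower in control GFP+ cells (-2.40). Of 7 endothelial genes none was called in any comparison. On GFP- replicates 1, 2 and 3, Zic5 was at 7.53, 7.54 and 7.57 and Zic2 at 5.95, 5.05 and 4.67. The part of each cell type in the Zic5 and Zic2 values was not tested.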

How the data were processed

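RNA of the sorted E10.5 limb bud cells was amplified in 2 cycles and hybridised to Mouse430_2 arrays. The authors deposited RMA values on the log2 scale (background-corrected, normalised and summarised per probe set), with no version of RMA stated and no present or absent calls used here, which the study filtered on. Two-cycle amplification from the 3′ end adds spread at low levels, and the number of arrays limits precision. 64 array controls were set aside, and 45037 probe sets were fitted with limma 3.58.1 in R 4.3.3 (1 model, 9 arrays, intensity trend). Benjamini-Hochberg adjustment ran over all probe sets. Scripts were tested on simulated data.

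Samples were grouped by title. Members and the 12 gene lists were chosen with earlier results of these data known. Genes named are all Zic probe sets, up to 4 members per list with the smallest adjusted p, and Pax3. Also named are the 5 genes most correlated with each Zic gene and the nearest 2 measured neighbours on each side of each pair. Cdon, Wnt1, Lmx1a, Olig3, Neurog2, Nes, Irx3, Hes5, Atoh1, Wnt11, En1 and Nog were named after their values were seen. Some list entries without a probe set of 1 symbol are not analysed here.

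Replicate numbers come from the titles. The deviations from the group means of equally numbered arrays of both GFP+ groups correlated by 0.164, 0.472 and 0.287 and were treated as pairs in a fit with a replicate block; a shared day or litter is stated nowhere, and GFP- arrays did not pair. Alternatives were other scalings, no trend, array weights, the replicate block, the 6 arrays compared, a filter (23557 probe sets kept), other fold thresholds, the study's local pooled error test rebuilt from its description, the mean of a gene's probe sets, and each array left out in turn. The somite arrays are not analysed here.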

Additional observations from a re-analysis of the deposited data

How the results depend on the processing

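The number of the 4 Zic genes called was 1 with the fusion under every alternative run, always Zic1, and leaving out each array in turn kept it at 1. In control GFP+ against GFP- cells it was 2, and 2 to 3 over the fits that left out 1 array; in PAX3-FKHR GFP+ against GFP- cells it was also 2, and 2 to 3. The third gene was Zic2 in each case. With the replicate block on all arrays the counts were 1, 3 and 3, and with the replicate block on the 6 arrays compared 1, 3 and 2; the call gained was Zic2 (adjusted p 0.0268 and 0.0361 against control GFP+ cells, 0.0343 against PAX3-FKHR GFP+ cells), and in the paired comparison of the fusion the block changed no call. The local pooled error test also called Zic2 in both comparisons with GFP- cells (adjusted p 0.0481 and 0.00627), as did array weights in PAX3-FKHR GFP+ against GFP- cells (0.0227).

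Small differences changed sign. With the fusion, Zic2 was -0.18 with array weights and -0.032 with the local pooled error test, and -0.17 to 0.26 with arrays left out. Zic5 was -0.21 and -0.22 on 1456219_at under the same 2 settings and 0.017 by the mean of its probe sets. With arrays left out it was -0.43 to 0.19 on 1456140_at, -0.23 to 0.31 on 1456219_at and -0.074 to 0.14 on 1425666_at. Zic4 on 1421539_at was -0.0044 to 0.15 in PAX3-FKHR GFP+ against GFP- cells. None of these was called. The cause was not tested.

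Over all probe sets, calls with the fusion numbered 242, against 488 with array weights, 199 with the replicate block on all arrays, 376 with it and 104 without it on the 6 arrays, and 104 to 192 with an array left out. Between control GFP+ and GFP- cells they numbered 2631, against 3742 with array weights, 3173 with the replicate block on all arrays, 1617 with it on 6 arrays, 1469 at a log2 fold change of 1, 933 by gene means and 1601 to 2787 with an array left out. Between PAX3-FKHR GFP+ and GFP- cells they numbered 3061, against 4484 with array weights, 3467 with the replicate block on all arrays, 2940 with it on 6 arrays, 1647 at a log2 fold change of 1, 1207 by gene means and 1580 to 2566 with an array left out. Gene means are over fewer features tested.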
